A study of Mus musculus with 36 samples.

Results

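Control hypothalamus was compared here with control brain tissue labelled hippocampus, to ask which genes mark each region before Dicer is deleted. All 6 hypothalamus control arrays, 3 taken 4 weeks and 3 taken 8 weeks after injection, were set against all 6 control arrays labelled hippocampus, 3 at each of the same times. These are 12 of the 36 arrays of the series, which also holds 6 cortex control arrays and 18 arrays of Dicer conditional knockout (cKO) mice. Every control mouse carried the Camk2a-CreERT2 transgene (Cre+), a tamoxifen-activated recombinase driven by a promoter of forebrain excitatory neurons, together with both floxed Dicer alleles (Dicer lox/lox). They were C57BL/6J mice, injected with vehicle at 8 weeks of age, whereas cKO mice of the same genotype received 10 mg of tamoxifen in all. Each array held the RNA of 1 animal, and no animal gave both tissues: 0 control animals were shared between hypothalamus and hippocampus, against 5 between hypothalamus and cortex. Background correction and normalization had been run separately for each tissue. Tissue, animals and normalization run therefore cannot be told apart. The lower quartile of the deposited log2 levels lay between 4.69 and 4.79 on the hypothalamus arrays and between 4.09 and 4.14 on the hippocampus-labelled arrays, so log2 levels were not compared. Each array was instead turned into percentile ranks over its 45037 probe sets, on which 100 is the brightest probe set and 50 the median. A rank depends on the probe as well as on the transcript, and is read here only between arrays for the same probe set.

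The hypothalamus is a small region at the base of the brain that controls feeding, body temperature, water balance, sleep and the pituitary. It does so through many small groups of neurons, each marked by a neuropeptide or releasing hormone and by the homeodomain and other transcription factors that specify the group during development. The hippocampus belongs to the cortical side of the forebrain (the pallium). Its pyramidal and granule cells are glutamatergic, load their vesicles through Slc17a7 (VGLUT1), and keep pallial transcription factors such as Neurod6 and, in granule cells, Prox1.

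The 6 arrays labelled hippocampus went against that label in several of the pallial and glutamatergic markers named here, which were chosen after their values were seen. Slc17a7, the vesicular glutamate transporter of cortical and hippocampal neurons, had ranks of 21.5, 22.6 and 26.1 in hypothalamus, against 20.9, 23.4 and 25.2 in hippocampus-labelled tissue, given here and below as the lowest, the median and the highest of 6 arrays. The groups overlapped, and in the cortex control arrays the same probe set averaged 93.2 ± 0.49. Tbr1, a transcription factor of pallial glutamatergic neurons, averaged 6.58 ± 2.2 in hypothalamus against 1.59 ± 0.68 in hippocampus-labelled arrays, and 80.7 ± 5.0 in cortex. Neurod6, which marks pallial pyramidal neurons, averaged 19.02 ± 5.0 in hypothalamus against 6.50 ± 3.3 in hippocampus-labelled arrays, and 80.7 ± 8.7 in cortex. Emx1, which specifies the dorsal pallium, averaged 35.1 ± 1.7 in hypothalamus against 39.04 ± 0.69 in hippocampus-labelled arrays, and 80.5 ± 2.2 in cortex. Itpka, an inositol trisphosphate kinase of pyramidal cell spines, averaged 47.5 ± 5.4 in hypothalamus against 40.7 ± 1.4 in hippocampus-labelled arrays, and 95.03 ± 0.50 in cortex. Among granule cell markers, Prox1 and the desmosomal gene Dsp were called higher in hypothalamus. Lct was called on the hippocampus-labelled arrays against cortex, at -23.5 points, whereas Tdo2 was not, at 1.21 points. Neither Lct nor Tdo2 was called between hypothalamus and the hippocampus-labelled arrays. Other members of the hippocampal lists went the other way. The dentate gene Plk5 and the CA1 gene Fibcd1 were called lower in hypothalamus, at -16.3 and -21.3 points. Neither was called against cortex on the hippocampus-labelled arrays. Of the pallial factors, Emx2, Lhx2 and Bcl11b were called lower in hypothalamus and Neurod1, Neurod6 and Prox1 higher. Emx2 and Bcl11b were not called against cortex on the hippocampus-labelled arrays, whereas Lhx2 was called below it. Nrgn, a gene of postsynaptic calcium signalling, was called lower in hypothalamus and was not called on the hippocampus-labelled arrays against cortex. On the hippocampus-labelled arrays 5.83% of all genes were called above cortex and 7.10% below. Of 16 pallial factors, Prox1 and Zbtb20 were called above cortex there and 11 below. Of 9 dentate genes, 1 was above and 1 below. Of 4 CA2 genes, Amigo2 and Cacng5 were above cortex, by 37.5 and 15.7 points, and 1 was below. Of 6 CA1 genes, 0 were above and 3 below. Slc17a6 (VGLUT2), the vesicular transporter of most subcortical glutamatergic neurons, averaged 97.4 ± 0.13 in hypothalamus against 97.97 ± 0.35 in hippocampus-labelled arrays, and 75.4 ± 4.5 in cortex. In cKO mice Slc17a7 averaged 22.7 in hypothalamus and 31.3 on the arrays labelled hippocampus. What follows is therefore written as a comparison of hypothalamus with arrays labelled hippocampus, and cortex control arrays are set beside it as a second outside tissue. Both comparisons use the same hypothalamus arrays, so a call in both is not independent support. For the hypothalamus label, Pmch, Hcrt, Avp, Oxt, Pomc and Trh were all called higher in hypothalamus, and they too were named with their values known. Of the 27 measured peptide genes they come from, 17 were called higher and 1 lower. Of 24 hypothalamic transcription factors, 16 were called higher and 3 lower. Of all genes 4.61% were called higher and 3.10% lower.

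**Figure D1:**
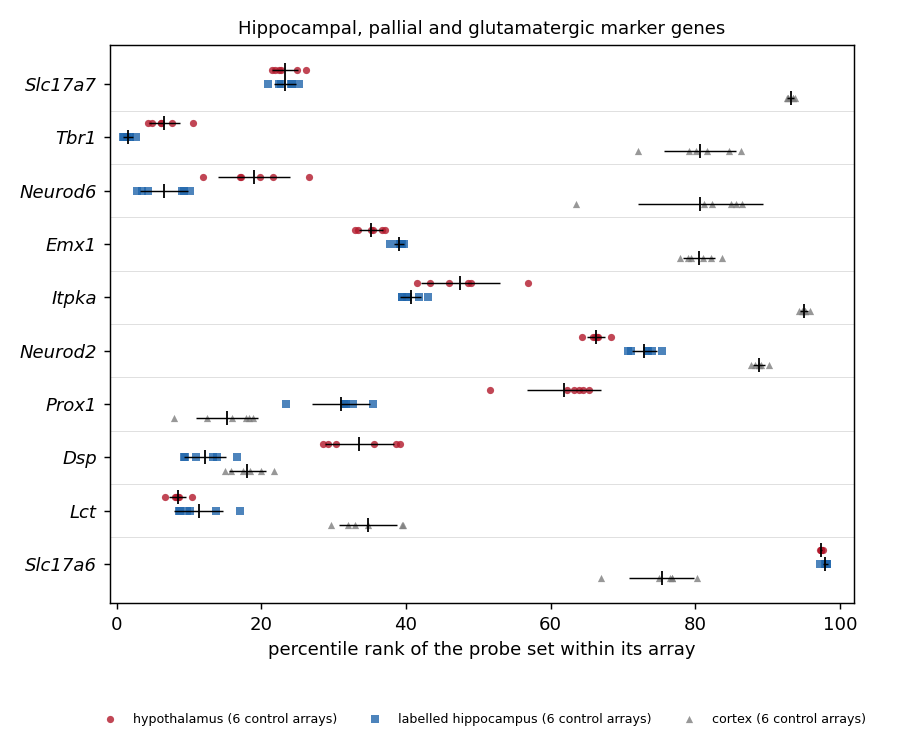
Percentile rank (x axis, 0 to 100) of 10 marker genes of hippocampal, pallial and glutamatergic neurons in each control array, with hypothalamus above arrays labelled hippocampus and cortex below both; each point is an array, the vertical tick is the mean and the line 1 SD. Slc17a7, Tbr1, Neurod6, Emx1 and Itpka lay far lower on the hippocampus-labelled arrays than in cortex, and Slc17a6 lay higher.

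Among 18193 genes, 839 were called higher in hypothalamus (4.61% of those tested) and 564 lower (3.10%), a call being a Benjamini-Hochberg adjusted p under 0.05 in limma together with a difference of at least 10 percentile points. Adjusted p alone took in 11635 genes, and the median gene's ranks had an SD of 1.08 points among hypothalamus arrays and 1.31 among hippocampus-labelled arrays. In 3869 genes (21.3%) all 6 hypothalamus arrays ranked above all 6 hippocampus-labelled arrays, and in 4194 (23.1%) all ranked below. The median difference over all genes was -0.21 points. Of the calls, 706 had a mean rank of at least 50 in the tissue where the gene was higher, 447 of them higher in hypothalamus and 259 lower. The split depended on the scale. On quantile-normalised log2 levels 460 genes were higher and 193 lower by at least 1, and on the deposited log2 levels 1728 and 60, with the median gene shifted by 0.41. Ranks leave little room near the top, so that a gene abundant in both tissues can hardly reach 10 points. In whole tissue, fewer cells of a type and less RNA per cell cannot be told apart.

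**Figure D2:**
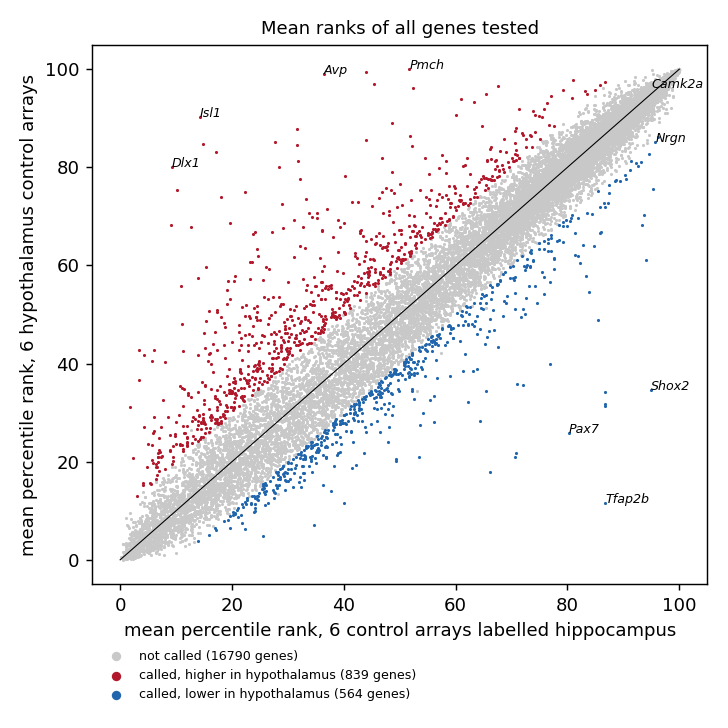
Mean percentile rank of each of 18193 genes in the 6 hypothalamus control arrays (y axis) and the 6 control arrays labelled hippocampus (x axis); the line marks equal ranks. The 839 genes called higher in hypothalamus lie above it and the 564 called lower lie below it.

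Neuropeptide and releasing hormone genes were mostly higher in hypothalamus. Of 27 measured genes of this list, 17 were called higher in hypothalamus and 1 lower, where 4.61% and 3.10% of all genes were. The median difference of the list was 16.7 points, against -0.21 over all genes. Pmch, the precursor of melanin-concentrating hormone, an appetite-promoting peptide of the lateral hypothalamus, had ranks of 99.9, 99.9 and 100.0 in hypothalamus, against 50.2, 51.5 and 53.3 in hippocampus-labelled tissue. Hcrt encodes the orexins, wake-promoting peptides of neighbouring lateral hypothalamic neurons, and it had ranks of 99.1, 99.4 and 99.6 in hypothalamus, against 41.3, 44.1 and 45.5 in hippocampus-labelled tissue. Both lay near the top of every hypothalamus array and near the middle of every hippocampus-labelled array. The differences were 48.2 ± 0.57 points, adjusted p = 6.9e-11 for Pmch, and 55.5 ± 0.65 points, adjusted p = 6.9e-11 for Hcrt. Their promoters are shown because these genes combined a rank near the top in hypothalamus with the lowest p-values of the list. Capitals mark TATAAA, the core of the TATA box, which begins 27 bases before the annotated start of Pmch and 33 bases before that of Hcrt; the sequences are RefSeq's on GRCm38.p6, from 250 bases before to 50 bases after the start, at chr10:88090822-88091121 on the plus strand and chr11:100762882-100763181 on the minus strand.
Pmch: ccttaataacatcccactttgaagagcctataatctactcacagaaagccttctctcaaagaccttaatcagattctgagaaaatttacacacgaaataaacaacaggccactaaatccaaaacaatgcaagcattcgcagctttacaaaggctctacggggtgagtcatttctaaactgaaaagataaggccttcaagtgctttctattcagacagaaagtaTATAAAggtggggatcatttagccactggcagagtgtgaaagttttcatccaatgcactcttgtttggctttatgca
Hcrt: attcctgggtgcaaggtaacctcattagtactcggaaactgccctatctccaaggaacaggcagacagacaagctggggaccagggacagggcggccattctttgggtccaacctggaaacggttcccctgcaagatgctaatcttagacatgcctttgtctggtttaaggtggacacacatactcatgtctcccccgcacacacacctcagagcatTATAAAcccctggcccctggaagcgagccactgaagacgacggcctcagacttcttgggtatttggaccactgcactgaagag
TATAAA was found on either strand in 13.6% of all 32851 RefSeq promoters of this length and in 11.5% of the 14452 tested genes that have any. It was found in 7 of the 16 called peptide genes with a promoter. These matches are letters in a window and describe no measured binding.

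Peptides of the paraventricular, supraoptic and arcuate nuclei differed as well. Avp (vasopressin, the antidiuretic hormone) had ranks of 98.5, 98.95 and 99.6 in hypothalamus, against 30.7, 35.4 and 42.5 in hippocampus-labelled tissue. The groups were far apart, with a difference of 62.6 ± 2.0 points, adjusted p = 2.8e-08. Oxt (oxytocin) averaged 97.7 ± 0.64 in hypothalamus against 81.04 ± 1.1 in hippocampus-labelled arrays, with a difference of 16.7 ± 0.38 points, adjusted p = 4.3e-09. Trh, whose peptide drives thyrotropin release, averaged 85.1 ± 2.1 in hypothalamus against 27.7 ± 3.5 in hippocampus-labelled arrays. Crh, the releasing hormone of the stress axis, averaged 69.6 ± 3.6 in hypothalamus against 35.3 ± 14 in hippocampus-labelled arrays. The lowest hippocampus-labelled array, replicate 3 at 4 weeks, ranked at 8.96, and cortex averaged 77.3 ± 5.3. Ghrh, the growth hormone releasing hormone of the arcuate nucleus, averaged 66.5 ± 1.4 in hypothalamus against 23.8 ± 2.0 in hippocampus-labelled arrays. Pomc, the precursor of the satiety peptide alpha-MSH, averaged 90.7 ± 1.8 in hypothalamus against 60.1 ± 1.5 in hippocampus-labelled arrays, and Cartpt, expressed beside it, averaged 96.7 ± 0.55 in hypothalamus against 85.9 ± 1.5 in hippocampus-labelled arrays. Gal, Nts, Tac2 and Pdyn, peptides of several hypothalamic nuclei, differed by 32.99, 30.03, 40.5 and 42.6 points in the same direction. Npy, the appetite-promoting peptide, was not called (difference 4.3 ± 2.1 points, adjusted p = 0.103), nor were Sst (difference 0.7 ± 0.72 points, adjusted p = 0.429), Penk and Tac1, which ranked above 90 on every array of both groups. Cck, a peptide abundant in cortex and thalamus, was the member that was lower, at 81.2 ± 3.6 in hypothalamus against 93.2 ± 3.4 in hippocampus-labelled arrays, with cortex at 98.8 ± 0.13. Against the cortex arrays, 17 of the 27 were also higher in hypothalamus, and 15 were called higher in both comparisons, where 7.17% of all genes were called higher than cortex and 7.21% lower.

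**Figure D3:**
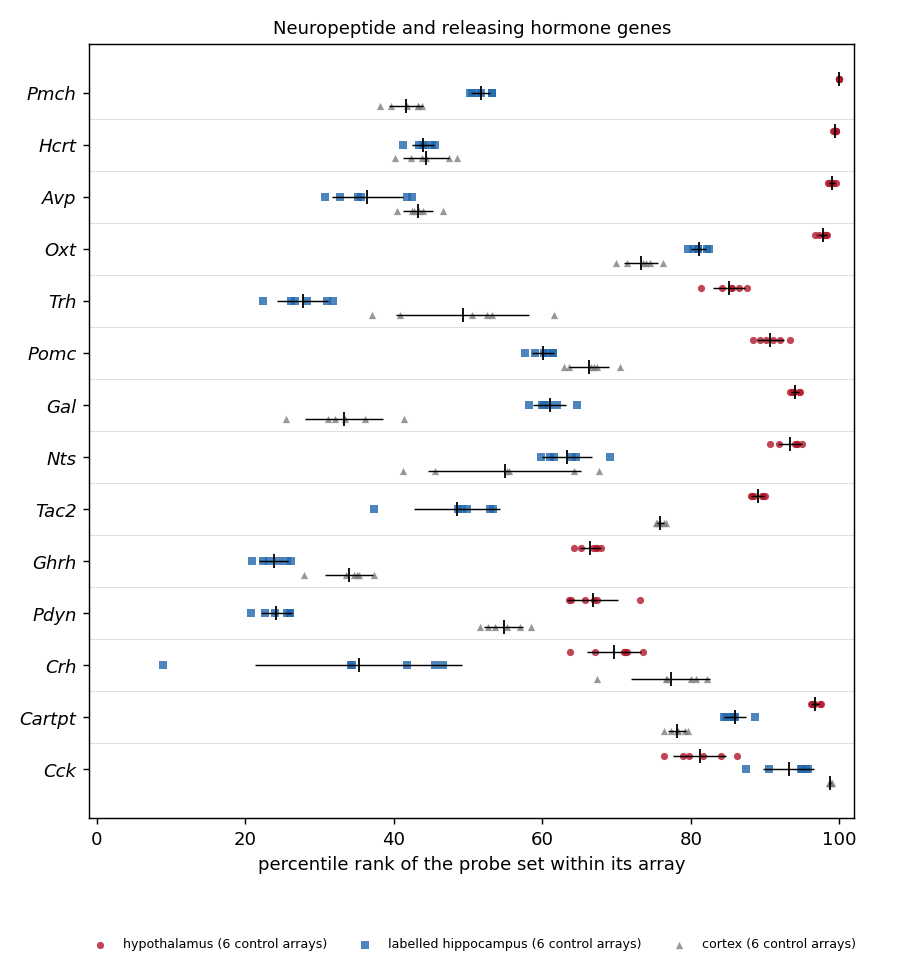
Percentile rank (x axis) of 14 neuropeptide and releasing hormone genes in each control array of hypothalamus, tissue labelled hippocampus and cortex (top to bottom within a gene); points are arrays, ticks means and lines 1 SD. All genes shown were called higher in hypothalamus than in hippocampus-labelled arrays except Cck, which was lower.

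Genes of monoamine and histamine neurons were higher too, in 6 of 8, where 4.61% of all genes were called higher. Slc18a2, the vesicular monoamine transporter, had ranks of 76.02, 84.5 and 88.1 in hypothalamus, against 12.1, 16.8 and 23.04 in hippocampus-labelled tissue. Th, the rate-limiting enzyme of catecholamine synthesis, had ranks of 76.8, 88.6 and 93.4 in hypothalamus, against 41.4, 53.2 and 56.1 in hippocampus-labelled tissue. Neither gene overlapped between the groups, where all 6 hypothalamus arrays ranked highest in 21.3% of all genes. The differences were 65.9 ± 2.2 points, adjusted p = 3.5e-08 for Slc18a2, and 34.6 ± 3.5 points, adjusted p = 2.3e-05 for Th. Their promoters are shown because both hold the palindrome TGACGTCA, the full cAMP response element, in capitals. It starts 4 bases before the annotated start of Slc18a2 (chr19:59260628-59260927, plus strand) and 45 bases before that of Th (chr7:142899946-142900245, minus strand).
Slc18a2: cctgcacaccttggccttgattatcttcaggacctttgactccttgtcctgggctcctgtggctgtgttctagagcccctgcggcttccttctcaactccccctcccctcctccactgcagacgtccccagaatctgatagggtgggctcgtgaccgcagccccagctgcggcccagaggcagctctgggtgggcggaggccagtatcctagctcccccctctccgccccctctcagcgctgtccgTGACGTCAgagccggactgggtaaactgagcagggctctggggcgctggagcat
Th: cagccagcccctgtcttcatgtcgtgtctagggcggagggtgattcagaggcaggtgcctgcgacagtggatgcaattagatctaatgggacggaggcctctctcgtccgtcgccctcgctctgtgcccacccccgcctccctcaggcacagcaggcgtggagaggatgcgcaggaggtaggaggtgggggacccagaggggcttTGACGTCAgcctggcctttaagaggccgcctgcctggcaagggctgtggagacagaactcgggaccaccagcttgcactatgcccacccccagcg
The palindrome was found in 1.79% of all promoters, in 2.92% of those of tested genes and in 2 of the 6 called genes of the list. The dopamine transporter Slc6a3 varied widely among hypothalamus arrays and had ranks of 53.8, 92.6 and 96.3 in hypothalamus, against 28.9, 31.8 and 34.2 in hippocampus-labelled tissue. Its lowest hypothalamus arrays were replicate 2 at 8 weeks and replicate 3 at 4 weeks, at 53.8 and 75.9. The same 2 arrays were also lowest for Th, Slc18a2 and Foxa1. Foxa1 is a transcription factor of midbrain dopamine neurons and of parts of the posterior hypothalamus, and averaged 73.8 ± 5.5 in hypothalamus against 18.01 ± 2.9 in hippocampus-labelled arrays. Ddc, which makes dopamine from L-DOPA, and Gch1, which makes the cofactor of Th, differed by 16.6 and 26.6 points. Hdc, the histamine-synthesizing enzyme of the tuberomammillary nucleus, averaged 73.7 ± 2.1 in hypothalamus against 46.3 ± 3.7 in hippocampus-labelled arrays. The serotonergic genes Tph2 and Slc6a4 were not called and differed by -0.774 and -9.06 points. All 6 called genes were also called higher than in cortex, where 7.17% of all genes were.

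Transcription factors of the hypothalamus followed. Of 24 measured, 16 were called higher and 3 lower, where 4.61% and 3.10% of all genes were. The list had a median difference of 17.1 points. Isl1, a LIM-homeodomain factor of arcuate neurons, had the largest difference of all genes called. It had ranks of 88.8, 89.9 and 92.5 in hypothalamus, against 11.3, 13.8 and 17.9 in hippocampus-labelled tissue, a difference of 75.9 ± 1.1 points, adjusted p = 2.9e-10. Sim1, needed for the paraventricular nucleus, had ranks of 65.6, 68.1 and 70.2 in hypothalamus, against 4.03, 9.09 and 13.1 in hippocampus-labelled tissue. Six6, which acts in the eye field, the pituitary and the suprachiasmatic region, averaged 67.9 ± 3.0 in hypothalamus against 12.7 ± 2.0 in hippocampus-labelled arrays, and Otp, a homeodomain factor of neuroendocrine neurons, averaged 96.2 ± 0.47 in hypothalamus against 52.4 ± 1.2 in hippocampus-labelled arrays. Fezf1 and Nr5a1 (SF-1), both factors of the ventromedial nucleus, differed by 44.3 and 12.02 points. Nkx2-1, which patterns the ventral hypothalamus, differed by 13.6 points. The 3 that were lower, Lhx9, Barhl1 and Sox14, differed by -55.1, -22.9 and -24.6 points. Lhx1 and Lhx5 were not called between the groups (-3.30 and 1.57 points). Lhx1 averaged 71.5 ± 2.6 in hypothalamus against 74.8 ± 2.9 in hippocampus-labelled arrays, with cortex at 10.7 ± 2.6. Six3, a factor of the anterior forebrain and eye field, was not called either, at 8.87 points, but was called at 12.1 points without hippocampus-labelled replicate 1 at 4 weeks. Against cortex, 17 of the 24 were higher in hypothalamus and 0 lower, where 7.17% and 7.21% of all genes were. In both comparisons 13 were called higher.

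The 6 measured transcription factors of GABAergic neurons were all called higher in hypothalamus, where 4.61% of all genes were. Their median difference was 41.5 points. Dlx1, a homeodomain factor of forebrain inhibitory neurons, had ranks of 78.3, 79.6 and 82.3 in hypothalamus, against 5.45, 9.37 and 13.5 in hippocampus-labelled tissue. Dlx2, Dlx5 and Dlx6, its relatives, differed by 43.6, 39.5 and 43.4 points, and Lhx6 and Sp8 by 18.05 and 18.7. Sp8 ranked low in both groups, from 16.4 to 25.9 in hypothalamus and from 2.2 to 10.5 on hippocampus-labelled arrays. None of the 6 overlapped between the groups, where 21.3% of all genes had every hypothalamus array above every hippocampus-labelled array. Cortex ranked close to hypothalamus for Dlx1, at 75.3 ± 5.2. Of the 6, 0 were called higher in hypothalamus than in cortex and 1 lower, where 7.17% and 7.21% of all genes were. All 6 were called lower on hippocampus-labelled arrays than in cortex, where 7.10% of all genes were. The main probe sets of the GABA-synthesizing enzymes ranked near the top in both groups, where a difference of 10 points in favour of hypothalamus cannot be reached. Gad1 averaged 98.4 ± 0.13 in hypothalamus against 98.9 ± 0.10 in hippocampus-labelled arrays, with a difference of -0.5 ± 0.18 points, adjusted p = 0.0283, and Gad2 averaged 94.2 ± 0.72 in hypothalamus against 95.4 ± 0.55 in hippocampus-labelled arrays. The list of fast transmitter genes, Slc17a6, Slc17a7, Gad1, Gad2 and Slc32a1 (the vesicular GABA transporter) among 9 measured, had 0 calls. Other probe sets of Gad2 and Slc32a1 gave larger differences, and the probe set of highest variance put Gad2 at 15.2 points and Slc32a1 at -16.7.

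**Figure D4:**
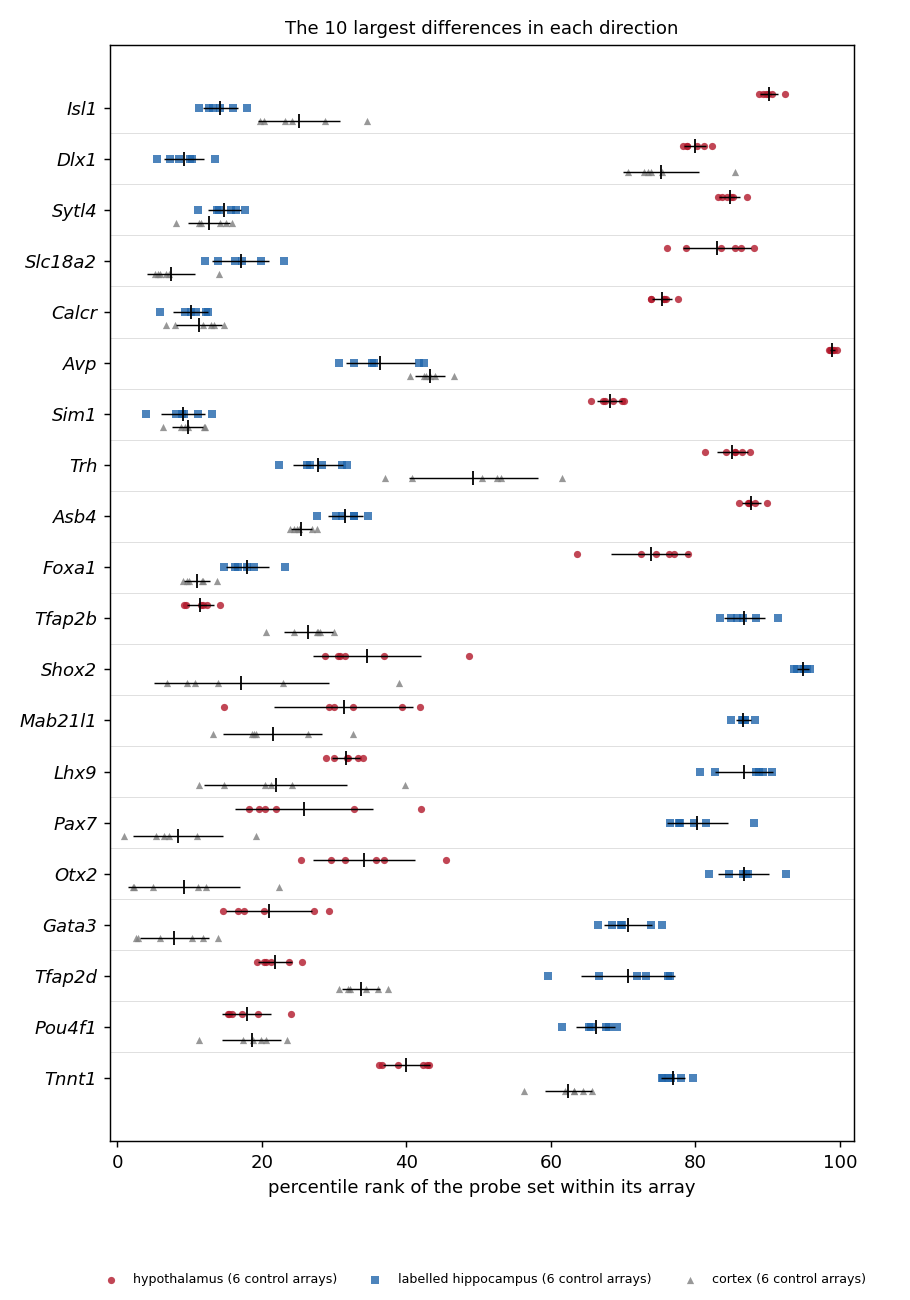
Percentile rank (x axis) of the 10 genes with the largest positive and the 10 with the largest negative difference (hypothalamus minus tissue labelled hippocampus) in each control array; cortex control arrays are drawn below both, points are arrays, ticks means and lines 1 SD. In none of the 20 genes did the 6 hypothalamus and the 6 hippocampus-labelled arrays overlap, which the choice of these genes required.

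The other genes among the 10 largest positive differences were Sytl4, Calcr, Asb4, Avp and Trh. Sytl4 (granuphilin), which docks dense-core vesicles, had ranks of 83.2, 84.7 and 87.2 in hypothalamus, against 11.2, 14.9 and 17.6 in hippocampus-labelled tissue. Its second probe set differed by -1.54 points. Calcr, the calcitonin and amylin receptor, had ranks of 73.8, 75.6 and 77.6 in hypothalamus, against 5.90, 10.5 and 12.5 in hippocampus-labelled tissue. Asb4, an imprinted gene of arcuate neurons, had ranks of 86.1, 87.4 and 89.97 in hypothalamus, against 27.7, 31.98 and 34.7 in hippocampus-labelled tissue. All 3 ranked near the hippocampus-labelled arrays in cortex, at 12.7 ± 2.9, 11.3 ± 3.2 and 25.5 ± 1.4 in that order. Among 35 peptide and hormone receptors, 8 were called higher and 0 lower, where 4.61% and 3.10% of all genes were. Their median difference was 3.39 points. Irs4, an insulin receptor substrate of the hypothalamus, averaged 96.9 ± 0.32 in hypothalamus against 45.4 ± 5.6 in hippocampus-labelled arrays. Npy2r, a presynaptic NPY receptor, averaged 73.6 ± 2.6 in hypothalamus against 33.3 ± 1.3 in hippocampus-labelled arrays, and Trhr, the TRH receptor, 69.3 ± 1.3 in hypothalamus against 31.1 ± 1.6 in hippocampus-labelled arrays. Esr1 (estrogen receptor alpha) and Oxtr (oxytocin receptor) differed by 23.1 and 27.4 points. Lepr, the leptin receptor, was not called (difference 3.2 ± 1.3 points, adjusted p = 0.0521). Of 23 imprinted genes 4 were higher, against 4.61% of all genes, with a median difference of 0.22 points: Asb4, Calcr, Dlk1 and Peg10. Dlk1, a Notch-like ligand, averaged 96.6 ± 0.14 in hypothalamus against 67.6 ± 5.2 in hippocampus-labelled arrays.

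Genes of ciliated and ventricular cells were higher in hypothalamus. Of 11 ependymal genes, 10 were called higher, with a median difference of 26.5 points. For this and the next 3 lists, 4.61% of all genes were called higher and 3.10% lower. Rsph4a, a radial spoke component of motile cilia, had ranks of 59.8, 61.9 and 65.2 in hypothalamus, against 20.4, 26.3 and 27.03 in hippocampus-labelled tissue. Fam183b, another cilia gene, and Rsph1 differed by 38.03 and 28.3 points. Ccdc153 averaged 72.9 ± 11 in hypothalamus against 41.5 ± 9.0 in hippocampus-labelled arrays, with its lowest hypothalamus array, replicate 2 at 8 weeks, at 51.8. That array also had the lowest mean rank over the 11 genes, 56.4, where the hypothalamus arrays' median was 70.0 and the highest 72.7. The hippocampus-labelled arrays ranged from 39.1 to 47.5. Foxj1, the regulator of motile cilia, was the member not called (difference 2.2 ± 1.1 points, adjusted p = 0.112). Whichever array was left out, 10 of the 11 were called. Tanycytes are the glial cells that line the floor of the third ventricle, and 5 of their 7 measured markers were higher. Gpr50, an orphan receptor of tanycytes, averaged 68.6 ± 2.3 in hypothalamus against 19.7 ± 2.1 in hippocampus-labelled arrays, and Fndc3c1, Scn7a, Col23a1 and Rax differed by 31.1, 28.5, 18.7 and 15.1 points. Dio2, the deiodinase that activates thyroid hormone and is made by tanycytes and astrocytes, was lower, at 62.1 ± 2.9 in hypothalamus against 81.3 ± 3.1 in hippocampus-labelled arrays, with cortex at 91.1 ± 0.71. Choroid plexus markers split. Clic6 and Calml4 were higher, by 32.2 and 33.5 points, and Kl as well. Ttr (transthyretin), their most abundant transcript, was lower at 54.7 ± 12 in hypothalamus against 83.8 ± 13 in hippocampus-labelled arrays and overlapped between the groups, and Otx2 was lower. Pituitary markers were called higher in 3 of 10, namely Cga, Tshb and Tbx19. Cga, the shared alpha subunit of pituitary glycoprotein hormones, had ranks of 25.4, 74.5 and 88.7 in hypothalamus, against 30.9, 32.3 and 36.2 in hippocampus-labelled tissue. The groups overlapped, and 1 hypothalamus array ranked below all hippocampus-labelled ones. Its adjusted p was 0.0925 in an exact rank-sum test, and Tbx19 stood at the limit of 10 points and was lost when any of 3 arrays was left out (replicate 3 at 4 weeks of hypothalamus, and replicates 3 at 4 weeks and 1 at 8 weeks labelled hippocampus), which left 2 calls. Mean ranks over the 10 pituitary genes ranged from 29.8 to 38.5 in hypothalamus arrays and from 29.5 to 30.7 in hippocampus-labelled arrays, and the part of pituitary tissue in the other results was not tested.

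**Figure D5:**
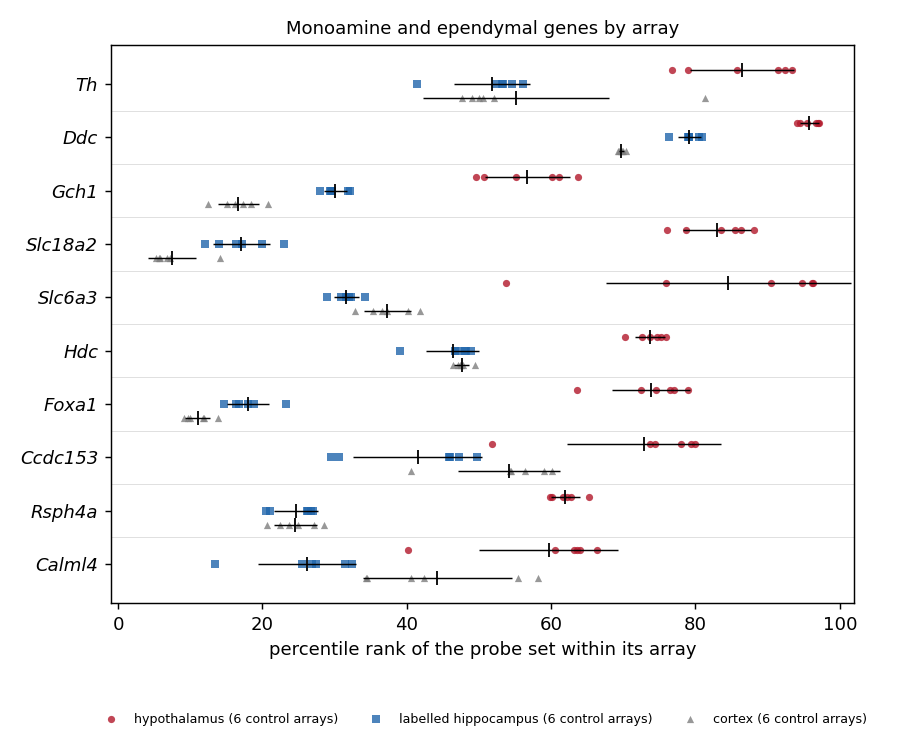
Percentile rank (x axis) of 6 monoamine and histamine genes, Foxa1 and 3 ventricular genes in each control array of hypothalamus, tissue labelled hippocampus and cortex (top to bottom within a gene); points are arrays, ticks means and lines 1 SD. Hypothalamus arrays spread widely in Slc6a3 (SD 16.9 points), Ccdc153 and Calml4, whereas hippocampus-labelled arrays varied little in Slc6a3 (SD 1.72).

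The 10 largest negative differences included several developmental transcription factors, among them Lhx9, which the list of hypothalamic transcription factors also holds. Tfap2b, an AP-2 factor known from midbrain, hindbrain and neural crest, had ranks of 9.29, 11.7 and 14.3 in hypothalamus, against 83.4, 86.2 and 91.4 in hippocampus-labelled tissue. The difference (-75.2 ± 0.96 points, adjusted p = 7.8e-11) was the largest negative one. Shox2, a homeodomain factor of thalamus and midbrain, had ranks of 28.7, 31.2 and 48.7 in hypothalamus, against 93.7, 95.1 and 95.9 in hippocampus-labelled tissue. Pax7, a paired-box factor of the dorsal midbrain and spinal cord, had ranks of 18.2, 21.2 and 42.1 in hypothalamus, against 76.5, 78.9 and 88.1 in hippocampus-labelled tissue. These 3 genes lay high on every hippocampus-labelled array and low in hypothalamus. Lhx9 (LIM-homeodomain, thalamus and midbrain) averaged 31.7 ± 1.9 in hypothalamus against 86.8 ± 4.0 in hippocampus-labelled arrays, Mab21l1 (eye and midbrain development) 31.3 ± 9.6 in hypothalamus against 86.7 ± 1.1 in hippocampus-labelled arrays and Otx2 (forebrain and midbrain patterning, choroid plexus) 34.2 ± 7.0 in hypothalamus against 86.7 ± 3.5 in hippocampus-labelled arrays. Gata3, a factor of GABAergic midbrain and brainstem neurons, averaged 20.96 ± 6.0 in hypothalamus against 70.6 ± 3.3 in hippocampus-labelled arrays. Tfap2d averaged 21.8 ± 2.4 in hypothalamus against 70.7 ± 6.5 in hippocampus-labelled arrays and Pou4f1 (Brn3a, a POU factor of habenula, midbrain and sensory neurons) 17.9 ± 3.4 in hypothalamus against 66.2 ± 2.7 in hippocampus-labelled arrays. Tnnt1, a slow-muscle troponin that is also transcribed in thalamus, averaged 40.01 ± 3.2 in hypothalamus against 76.9 ± 1.7 in hippocampus-labelled arrays. All 10 ranked above cortex on the hippocampus-labelled arrays as well and were called so, where 5.83% of all genes were, with Tnnt1 the smallest at 14.3 points. These 10 were chosen by the size of the difference. A wider list of 24 midbrain and hindbrain regulators was chosen after these values were seen and is described only. In it 19 were called lower and 1 higher (Nkx6-1) in hypothalamus, where 3.10% and 4.61% of all genes were. The list includes these transcription factors, so part of its count follows from how they were chosen. It shares Lhx9, Barhl1 and Sox14 with the hypothalamic list. Among its other members En2, Pax3, Meis2 and Tal1 differed by -35.2, -30.1, -32.97 and -36.5 points, and En1, which overlapped, by -14.8. En1 was lost when any of 7 arrays was left out, at adjusted p between 0.062 and 0.0787.

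Thalamic markers were lower in 4 of 9, with a median difference of -8.63 points, where 3.10% of all genes were called lower and 4.61% higher. Tcf7l2, a Wnt effector and the main regulator of thalamic neurons, had ranks of 66.8, 69.9 and 74.3 in hypothalamus, against 85.99, 95.7 and 96.6 in hippocampus-labelled tissue. Lef1, its relative in the same pathway, averaged 60.4 ± 1.8 in hypothalamus against 82.3 ± 2.3 in hippocampus-labelled arrays. Prkcd, a protein kinase C of thalamic relay neurons, averaged 44.2 ± 2.8 in hypothalamus against 56.3 ± 3.7 in hippocampus-labelled arrays, but its second probe set differed by 3.69 points. Striatal markers split, with Gpr6 and Rxrg higher by 38.96 and 14.4 points and Syndig1l and Rarb at -16.2 and -11.2. Of 9 neocortical layer genes, Rprm was higher by 17.5 points and Cplx3 was lower, at 40.5 ± 3.7 in hypothalamus against 53.3 ± 4.5 in hippocampus-labelled arrays.

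Lists for the hippocampus itself were small and mixed, where 4.61% of all genes were called higher and 3.10% lower. Of 6 CA1 genes, Fibcd1 was lower in hypothalamus (44.03 ± 1.7 in hypothalamus against 65.3 ± 4.3 in hippocampus-labelled arrays) and Spink8 higher (28.6 ± 2.4 in hypothalamus against 14.7 ± 3.5 in hippocampus-labelled arrays), whereas Wfs1, a standard CA1 marker, differed by 3.17 points. Cortex ranked above both groups for Spink8, at 62.8 ± 6.0. Of 4 CA2 and 6 CA3 genes, 0 were called. Of 9 dentate gyrus genes, Prox1 and Dsp were higher and Plk5 was lower, at -16.3 points. Prox1, which granule cells need, averaged 61.8 ± 5.1 in hypothalamus against 31.1 ± 4.0 in hippocampus-labelled arrays, and Dsp 33.5 ± 4.8 in hypothalamus against 12.2 ± 2.9 in hippocampus-labelled arrays. In the list of dentate progenitors and new neurons (12 measured), Neurod1 and Neurog2 were higher by 18.6 and 21.5 points and Draxin was lower at -10.5. Draxin lay at the limit and was not called without hippocampus-labelled replicate 2 at 8 weeks or hypothalamus replicate 3 at 4 weeks. Without hippocampus-labelled replicate 2 at 4 weeks or replicate 3 at 8 weeks, 2 of the 12 were called lower. Pallial transcription factors were called higher in 3 of 16 (Neurod1, Neurod6 and Prox1) and lower in 3 (Emx2, Lhx2 and Bcl11b). Emx2, which also acts in the diencephalon, averaged 20.1 ± 3.8 in hypothalamus against 49.3 ± 2.8 in hippocampus-labelled arrays, and Lhx2, which is also made in thalamus, 54.1 ± 3.6 in hypothalamus against 75.9 ± 1.3 in hippocampus-labelled arrays. Neurod2 was not called at -6.72 points. Against cortex, 11 of the 16 were called lower on hippocampus-labelled arrays and 11 lower in hypothalamus, where 7.10% and 7.21% of all genes were.

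Synaptic genes differed in few members, where 4.61% of all genes were called higher and 3.10% lower. Lists of 6 to 17 genes hold few calls at that share, so the counts are not read as particular to synaptic genes. Of 15 genes of postsynaptic calcium signalling, Nrgn (neurogranin, which binds calmodulin) was lower, at 85.2 ± 1.6 in hypothalamus against 95.7 ± 2.0 in hippocampus-labelled arrays, and Icam5 (telencephalin) higher, at 73.2 ± 2.8 in hypothalamus against 60.9 ± 1.7 in hippocampus-labelled arrays, with cortex above both at 99.6 ± 0.069 and 94.5 ± 0.49 in that order. Nrgn lay at the limit and was lost without hypothalamus replicate 3 at 8 weeks or hippocampus-labelled replicate 1 at 4 weeks (-9.98 and -9.93 points), and without hypothalamus replicate 1 at 4 weeks 2 of the 15 were called higher. Of 14 ionotropic glutamate receptor genes 0 were called. Grm2 was the only call among 6 metabotropic receptor genes (10.7 points, and 9.81 without hypothalamus replicate 2 at 8 weeks). Gabrd, the delta subunit of extrasynaptic GABA-A receptors, was the only call among 11 GABA-A subunits, at 18.7 ± 0.87 in hypothalamus against 41.4 ± 6.7 in hippocampus-labelled arrays, with cortex at 86.8 ± 1.2. Pvalb, a marker of fast-spiking interneurons, was not called at -6.35 points, near the top of the rank scale in both groups, although on quantile-normalised log2 levels it differed by -1.88. Of 17 Eph receptors and ephrins, Efnb2 and Epha3 were higher by 11.5 and 13.6 points, and Epha8 and Ephb6 differed by -13.7 and -10.3. Ephb6 was lost without hypothalamus replicate 2 or hippocampus-labelled replicate 3 at 4 weeks.

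Lists of general cell types held no calls, where 4.61% of all genes were called higher and 3.10% lower, so that lists of this size would hold few or none at that share. Pan-neuronal, oligodendrocyte and astrocyte genes also ranked near the top in both groups, which leaves little room for 10 points. Calls were 0 of 11 for pan-neuronal genes, 0 of 14 for oligodendrocytes, 0 of 5 for their precursors, 0 of 12 for astrocytes, 0 of 15 for microglia, 0 of 12 for endothelium, 0 of 10 for pericytes and smooth muscle and 0 of 16 for leptomeninges. Smaller shifts were present in several of these lists. All 14 oligodendrocyte genes had a negative difference, with a median of -2.74 points, and in 10 of them every hypothalamus array ranked below every hippocampus-labelled array, where 23.1% of all genes did. Mean ranks over these genes ranged from 89.0 to 91.2 in hypothalamus arrays and from 92.0 to 94.1 in hippocampus-labelled arrays. The shift was not particular to oligodendrocytes. Endothelial genes had a median of -4.20 points, with 2 of 12 positive and 6 fully below. Pericyte and smooth muscle genes had a median of -2.26, with 2 of 10 positive. All 16 leptomeningeal genes were negative, with a median of -5.39 and 0 fully below. All 5 precursor genes were positive, with a median of 3.76. Leptomeningeal genes varied most of these lists among hypothalamus arrays, their mean rank ranging from 51.9 to 77.5 in hypothalamus arrays and from 64.2 to 74.9 in hippocampus-labelled arrays. The highest was hypothalamus replicate 1 at 4 weeks, and without it 4 of the 16 were called lower; without hypothalamus replicate 3 at 8 weeks 1 was. Without hippocampus-labelled replicate 3 at 4 weeks 1 oligodendrocyte gene was called lower. Snap25, Gfap, Cx3cr1 and Cldn5, markers of neurons, astrocytes, microglia and endothelium, differed by -0.194, 1.53, 6.32 and -5.14 points. Among 16 immediate early genes Ier2 was lower (53.9 ± 3.4 in hypothalamus against 65.4 ± 2.7 in hippocampus-labelled arrays) and Fos differed by -7.01 points. Leaving out single arrays gave 1 to 3 calls there, with 3 without hypothalamus replicate 3 at 4 weeks and 2 when any of 6 others was left out. Of 11 clock genes 0 were called. RNA integrity as read from the beta-actin control probe sets, the log2 level of the 3′ minus the 5′ set, was 1.25 to 1.59 in hypothalamus arrays and 0.755 to 0.902 in hippocampus-labelled arrays. The same measure of GAPDH overlapped, at -0.002 to 0.237 in hypothalamus arrays and -0.09 to 0.018 in hippocampus-labelled arrays. Hypothalamus replicate 2 at 8 weeks, the array lowest for the ependymal list and for Slc6a3, had the highest value of both, 1.59 and 0.237. The part of RNA integrity in the regional differences was not tested.

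Camk2a and Dicer1 were not called. Camk2a, whose promoter drives the recombinase, averaged 96.1 ± 0.54 in hypothalamus against 95.1 ± 0.88 in hippocampus-labelled arrays, with a difference of 1.0 ± 0.41 points, adjusted p = 0.0588. Cortex averaged 99.6 ± 0.063. It has 6 probe sets, of which 5 were higher in hypothalamus and the probe set of highest variance was lower by 10.8 points. Dicer1 averaged 86.00 ± 0.26 in hypothalamus against 83.2 ± 0.59 in hippocampus-labelled arrays, with a difference of 2.8 ± 0.30 points, adjusted p = 2.9e-05, and its 2 probe sets differed in sign.

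Taken at each time alone, with 3 arrays a group, the contrast gave similar counts. At 4 weeks 874 genes were called higher (4.80%) and 531 lower (2.92%), and at 8 weeks 830 (4.56%) and 672 (3.69%). Of these, 690 were called higher and 426 lower at both times. All 1403 genes called over both times had the same sign at each. The change of the regional difference between 8 and 4 weeks gave 0 calls of 18193 genes (0%) in limma, with 1226 genes at an unadjusted p under 0.05 (6.74%) and 0 calls also on quantile-normalised log2 levels. The lowest adjusted p was 0.624. The 5 genes with the lowest p were Zfp352, Clec2d, Epcam, 1700066C05Rik and Nsl1, whose differences moved by -7.32, -11.4, -6.36, -4.83 and -5.53 points between the times, the largest being that of Clec2d, at -13.0 points at 8 weeks against -1.58 at 4 weeks.

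Arrays of cKO mice gave the same contrast in other animals, within the same normalization runs. There 853 genes were called higher in hypothalamus (4.69%) and 566 lower (3.11%). Of the 839 genes higher in controls 703 (83.8%) were called higher in cKO mice, which is 82.4% of the cKO list. Of the 564 lower genes 453 (80.3%) were called lower, which is 80.0% of the cKO list, and 0 were called in the opposite direction. List counts of the larger groups were 17 of 27 neuropeptide genes, 15 of 24 hypothalamic transcription factors, all 6 GABAergic transcription factors and 10 of 11 ependymal genes higher in cKO hypothalamus. Other lists moved by 1 or 2 calls. In the losing direction, 1 of 16 pallial factors was higher in cKO hypothalamus against 3 in controls, and 1 of 9 dentate genes against 2. So were 0 of 6 CA1 genes against 1, 1 of 17 Eph genes against 2, 0 of 6 metabotropic receptors against 1 and 2 of 10 pituitary genes against 3. Gains were 5 of 23 imprinted genes against 4, 1 of 15 microglial genes against 0 and 1 of 14 ionotropic receptor genes against 0. Among genes lower in cKO hypothalamus, thalamic calls were 3 against 4 and dentate progenitor calls 0 against 1. Immediate early calls were 2 against 1, choroid plexus calls 3 against 2 and monoamine calls 1 against 0. Prox1 kept its call, at 27.3 points, whereas Dsp, at 5.53, did not. Avp and Tfap2b differed by 63.7 and -74.02 points in cKO mice. Neurod6 and Spink8, called higher in control hypothalamus at low ranks, differed by -1.80 and 0.0266 points there and were not called. Whether the contrast itself differed between cKO and control mice was not tested.

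With cortex in place of the hippocampus-labelled tissue, 1305 genes were called higher in hypothalamus (7.17%) and 1311 lower (7.21%). The fit took in the 18 control arrays and treated arrays of 1 animal as related. Of the 839 genes higher than in hippocampus-labelled arrays 404 were also higher than in cortex, and of the 564 lower genes 219 were also lower. In opposite directions 89 genes were called by the 2 comparisons. Both comparisons use the same hypothalamus arrays, so their calls are not independent. The contrast of hippocampus-labelled arrays with cortex, 1060 higher and 1292 lower (5.83% and 7.10%), took in the markers that went against the label. Slc17a7, Tbr1, Neurod6 and Itpka were lower there than in cortex by 69.98, 79.1, 74.4 and 54.6 points. They were named after their values were seen, so these differences are no separate support for a statement about the label. Rank correlations between arrays over all probe sets had a median of 0.995 among hypothalamus arrays and 0.994 among hippocampus-labelled arrays, 0.969 between these tissues, and 0.953 and 0.956 between each and cortex in the same order.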

How the data were processed

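RNA of 1 mouse brain region per array was hybridised to Affymetrix mouse whole-genome expression arrays. The authors normalised each tissue's arrays separately by RMA (background correction, quantile normalization and probe set summary) in Expression Console and deposited log2 levels for 45101 probe sets. Here 64 control probe sets were dropped and each array was converted to percentile ranks over the other 45037. Platform annotation gave 34945 probe sets 1 gene, 932 several and 9160 none; symbols were updated through Entrez IDs (34741 matched), and each of 18193 genes kept its probe set of highest mean rank over the 12 arrays. Ranks were fitted with limma 3.58.1 (R 4.3.3; statmod 1.5.0 for arrays of 1 animal) with a mean for each tissue and time, and contrasts averaged over the times. A call needed a Benjamini-Hochberg adjusted p under 0.05 and 10 points. Values are means ± SD (n = 6) and differences ± SE, hypothalamus minus hippocampus-labelled. Named genes were the 10 largest non-overlapping calls in each direction, up to 4 called members of each list, textbook markers, Camk2a and Dicer1, and the 5 lowest p for the change with time. Members and lists were chosen with earlier results of these data known. Midbrain and hindbrain regulators, and other list members named without being among the 4 largest, were chosen after their values were seen. The number of arrays limits the precision. Alternatives covered scale, thresholds, probe set choice, variance model, test, design and leaving out each array.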

Additional observations from a re-analysis of the deposited data

Results flagged for a closer look

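Within a group of 6 arrays, 30 of 286 groups (10.5%), over 143 named genes, had their highest or lowest array far from the other 5, by Dixon's criterion. Values are percentile ranks. Chance flags about 1 in 20 groups. Genes of 1 array share its RNA. Hypothalamus replicate 2 at 8 weeks stood below the others for Calml4 (40.21, next array 60.59), Ccdc153 (51.79, next array 73.68), Foxj1 (46.86, next array 52.78) and Rsph1 (71.45, next array 75.71), and above them for Clic6 (86.82, next array 84.46) and Lef1 (63.76, next array 60.76). Hypothalamus replicate 1 at 4 weeks stood below the others for Prox1 (51.59, next array 62.26) and Sp8 (16.37, next array 24.54), and above them for Trhr (71.9, next array 69.31). Hippocampus-labelled replicate 3 at 4 weeks stood below the others for Crh (8.96, next array 34.22), Hdc (39.04, next array 46.73), Penk (91.11, next array 94.07), Pvalb (97.16, next array 98.38), Six3 (50.23, next array 75.8), Th (41.44, next array 52.37) and Wfs1 (84.43, next array 87.41), and above them for Cartpt (88.66, next array 85.96), Fibcd1 (73.88, next array 64.46), Gad2 (96.44, next array 95.48), Lef1 (86.77, next array 82), Lhx1 (80.54, next array 74.44) and Lhx5 (57.79, next array 52). Hippocampus-labelled replicate 2 at 8 weeks stood below the others for Calml4 (13.49, next array 25.42), Cldn5 (93.49, next array 94.12) and Tac2 (37.38, next array 48.62), and above them for Sp8 (10.48, next array 4.56). Hippocampus-labelled replicate 2 at 4 weeks stood above the others for Cga (36.16, next array 32.72), Cx3cr1 (74.66, next array 69.91) and Tph2 (16.14, next array 6.97). Hippocampus-labelled replicate 3 at 8 weeks stood below the others for Prox1 (23.42, next array 31.48).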

How the results depend on the processing

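Counts of called genes for both times, 4 weeks, 8 weeks and cKO arrays were 1403, 1405, 1502 and 1419. They were 653, 708, 670 and 665 on quantile-normalised log2 levels with a least difference of 1, and 11635, 9117, 9502 and 10489 with no least difference. For both times they were 259 at 20 points, 762 among genes of mean rank at least 40, 2759 with the probe set of highest variance, 3195 over single probe sets, and 2616 with cortex in place of the hippocampus-labelled arrays, chosen after seeing the data. Of the calls 59.8% were higher, against 96.6% on deposited log2 levels, 70.4% on quantile-normalised levels, 78.8% at 20 points, 46.8% with no least difference and 49.9% against cortex. The other alternatives gave 1147 to 1788 calls. Leaving out each array gave 1374 to 1424 calls, 1376 to 1449 at 4 weeks, 1487 to 1544 at 8 weeks, 0 for the change with time and 1392 to 1481 in cKO arrays, and 1336 to 1362 of the 1403 were kept. With the probe set of highest variance Camk2a was at -10.78 and Gad2 at 15.2 points, both opposite in sign to the values above; the cause was not tested. Neurod6 and Spink8 had adjusted p of 0.279 and 0.122 with cKO arrays in the fit, and of 143 named gene results 18 lost their call on quantile-normalised log2 levels (Nkx2-1, Nr5a1, Rax and Prkcd among them) and 12 on deposited levels (Fibcd1, Gabrd and Plk5 among them), all in the same direction. The replicate numbers did not pair the samples (correlation of deviations -0.0204 to 0.163), and with them as a block the counts were 1403, 1393, 1498 and 1404, with 0 for the change with time. Ranks near 100 leave little room for a difference.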
